A study of Arabidopsis thaliana with 6 samples.

Results

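The origin recognition complex (ORC) is the protein assembly that marks the sites where DNA replication can start, and its transcripts were measured here in meiocyte collections of Arabidopsis thaliana. The members were the 7 loci annotated as ORC subunits, namely ORC1A (AT4G14700), ORC1B (AT4G12620), ORC2 (AT2G37560), ORC3 (AT5G16690), ORC4 (AT2G01120), ORC5 (AT4G29910) and ORC6 (AT1G26840), chosen by locus out of 27655 genes counted per library. RNA came from cells pressed out of anthers of stages 4 to 7 of 2 genotypes, the strain Ler (Landsberg erecta) and knu-2, which carries a mutant allele of KNUCKLES (KNU), a zinc finger gene. There were 3 libraries per genotype, and the labels name no sort of the cells, no lesion of the allele and no pooling of plants. The series title concerns the progress of male meiocytes through the cell cycle, and the comparison asked how the transcripts of the replication origin complex differed between the genotypes.

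ORC binds chromatin as a ring of subunits, most of them related ATPases, and recruits CDC6 and CDT1, which together load the MCM2-7 helicase in the step called licensing. ORC1 and CDC6 are related proteins. Meiocytes replicate their DNA once, before meiosis, and then divide without a further round, so licensing genes act before the stages at which chromosomes pair and recombine. Arabidopsis has 2 genes for ORC1, and the literature on this plant describes ORC1A mainly in endoreplicating cells and ORC1B mainly in dividing cells. Its ORC1 proteins carry a PHD finger that binds methylated histone H3. ORC5 bears the second name EMBRYO DEFECTIVE and ORC1B the second name UNFERTILIZED EMBRYO SAC in the RefSeq annotation, after the defects of their mutants.

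The 7 genes lie on 4 chromosomes of TAIR10.1, and all are protein-coding. ORC1A (chromosome 4, 8422173 to 8424760, plus strand) and ORC1B (chromosome 4, 7459609 to 7462447, minus strand) each have a single exon, and 960 kb lie between them. ORC2 (chromosome 2, 15758601 to 15761262, plus strand) has 6 exons, ORC3 (chromosome 5, 5474366 to 5480067, plus strand) has 16 and ORC4 (chromosome 2, 85401 to 88399, plus strand) has 16. ORC5 (chromosome 4, 14627885 to 14630804, minus strand) has 4 exons and ORC6 (chromosome 1, 9298670 to 9300800, plus strand) has 10. The encoded proteins range from 284 residues for ORC6 to 813 for ORC1B.

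ORC1A and ORC1B are near copies, which matters for counting. Their proteins, of 809 and 813 residues, were identical at 90.4% of 799 aligned positions, and their coding sequences at 91.4% of 2397 aligned bases. The longest run of identical bases was 71, and 2.14% of all 50-base words of the ORC1A transcript also occurred in ORC1B, whereas no word of 75 bases did. Read length and the treatment of reads with several matches are not stated in the labels, and how far reads could be assigned to the wrong copy was not tested. The stretch with the longest identical run is shown from the TAIR10.1 reference, 5′ to 3′ on the coding strand, with the 3 bases that differ between the genes in capitals. It covers coding bases 529 to 648 of ORC1A (chr4:8422764-8422883, plus strand) and 535 to 654 of ORC1B (chr4:7461600-7461719, minus strand).
ORC1A: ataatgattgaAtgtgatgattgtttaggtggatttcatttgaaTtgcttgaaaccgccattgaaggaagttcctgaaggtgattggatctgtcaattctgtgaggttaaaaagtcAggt
ORC1B: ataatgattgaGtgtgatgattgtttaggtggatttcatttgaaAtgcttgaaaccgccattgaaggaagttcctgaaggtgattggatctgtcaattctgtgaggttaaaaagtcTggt

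The ORC promoters fell into separate groups by the exact spellings that were searched. Plant E2F factors, which drive genes of DNA synthesis, bind a site whose spellings include TTTCCCGC, TTTCGCGC, TTTGCCGC and TTTGGCGC. These spellings, searched on both strands in the 250 bases before the annotated start of the gene, were found in ORC1A, ORC2 and ORC3 and in 387 of 27437 protein-coding genes (1.41%). Among the other replication genes described further on, they were in 5 of 6 MCM2-7 helicase genes, 1 of 5 loading genes, 1 of 10 firing genes and 2 of 11 polymerase genes, and they were in 4 of 15 meiocyte markers. The other 4 members held GGCCCA, a spelling of the site II element of plant promoters, which TCP factors bind, and 13.7% of all promoters hold it on either strand. It was in 5 of 6 MCM2-7, 3 of 5 loading, 3 of 10 firing and 4 of 11 polymerase genes. GGCCCA was searched for after the sequences had been read. No ORC promoter held both kinds in these exact spellings, so no such E2F match overlapped a GGCCCA match. Other spellings of either site were not searched, so the grouping holds for these letters only. The 100 bases before the start are shown, 5′ to 3′ on the strand of the gene, with each match in capitals. They are given for the 3 members with an E2F spelling and for ORC4 and ORC6, the members with GGCCCA that fell in knu-2. ORC1B and ORC5 also held GGCCCA, were not called and are left out, so the GGCCCA promoters printed were picked by their change. The stretches shown lie at chr4:8422073-8422172 (ORC1A), chr2:15758501-15758600 (ORC2), chr5:5474266-5474365 (ORC3), chr2:85301-85400 (ORC4) and chr1:9298570-9298669 (ORC6), all on the plus strand of TAIR10.1.
ORC1A: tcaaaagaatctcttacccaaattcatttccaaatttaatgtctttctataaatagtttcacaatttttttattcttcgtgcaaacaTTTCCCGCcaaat
ORC2: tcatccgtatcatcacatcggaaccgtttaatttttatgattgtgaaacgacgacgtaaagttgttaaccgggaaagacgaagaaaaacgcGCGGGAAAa
ORC3: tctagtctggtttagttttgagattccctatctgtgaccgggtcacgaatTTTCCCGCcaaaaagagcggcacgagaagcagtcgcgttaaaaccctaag
ORC4: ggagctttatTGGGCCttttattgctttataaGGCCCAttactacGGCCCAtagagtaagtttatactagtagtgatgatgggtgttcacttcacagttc
ORC6: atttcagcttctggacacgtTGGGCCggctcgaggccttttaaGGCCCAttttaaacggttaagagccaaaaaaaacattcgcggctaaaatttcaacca

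Library totals were between 18070435 and 27995200 counts. KNU was at 75.1, 68.1 and 87.2 CPM (read counts scaled to the library size, which was corrected by the TMM method) in Ler replicates 1 to 3 and at 13.8, 7.49 and 4.62 CPM in knu-2 replicates 1 to 3. None of 15 meiocyte markers was at 0 in any library of either genotype. The same was true of 6 markers of green tissue, so detection alone does not measure meiocyte content. The meiocyte markers summed to 5197 to 6315 CPM in Ler and 1211 to 2160 CPM in knu-2. Of these 15 markers 13 were called lower, beside 24.4% of all genes tested. REC8, a cohesin gene of meiosis, went the other way and was called higher (0.49, SE 0.17, adjusted p = 0.0317). The 14 tapetum markers summed to 380 to 509 CPM in Ler and 1778 to 2478 CPM in knu-2, and of the 10 that could be tested 8 were called higher and 1 lower, beside 23.6% and 24.4% of all genes. The one that was lower was DYT1, an early regulator of the tapetum (-1.18, SE 0.41, adjusted p = 0.0339). MS1, MS2 and CYP703A2, also on the tapetum list, had no count in any library. In bulk RNA of this kind, fewer cells of a type and less RNA per cell cannot be told apart. The part of these shifts in the ORC values below was not tested.

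ORC transcripts did not move as a block. ORC4, ORC6 and ORC1A fell in knu-2, by 2.01-fold, 2.36-fold and 1.81-fold, and the other 4 members were not called. ORC2 and ORC5 had higher values in every knu-2 library than in any Ler library without passing the threshold. In 29.8% of all genes tested the knu-2 values lay above all Ler values. Calls rest on the edgeR quasi-likelihood fit of all 18422 genes tested, with a limit of 0.05 on the p-value after Benjamini-Hochberg adjustment. All 7 members passed the filter on low counts, with 133 to 2975 counts per library. Among all genes tested 24.4% were called lower and 23.6% higher, 48.1% in all, so 3 of 7 called is near the share of the whole transcriptome. No member was called higher by edgeR, DESeq2 or limma-voom. At an unadjusted p under 0.05 the number higher was 1 with edgeR (ORC2), 0 with DESeq2 and 2 with limma-voom (ORC2 and ORC5). The median log2 fold change of the 7 was -0.50, beside 0.10 for all genes tested. It was -0.28 without knu-2 replicate 2 (0.053 for all genes) and -0.20 with no scaling beyond library totals (0.42 for all genes).

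**Figure D1:**
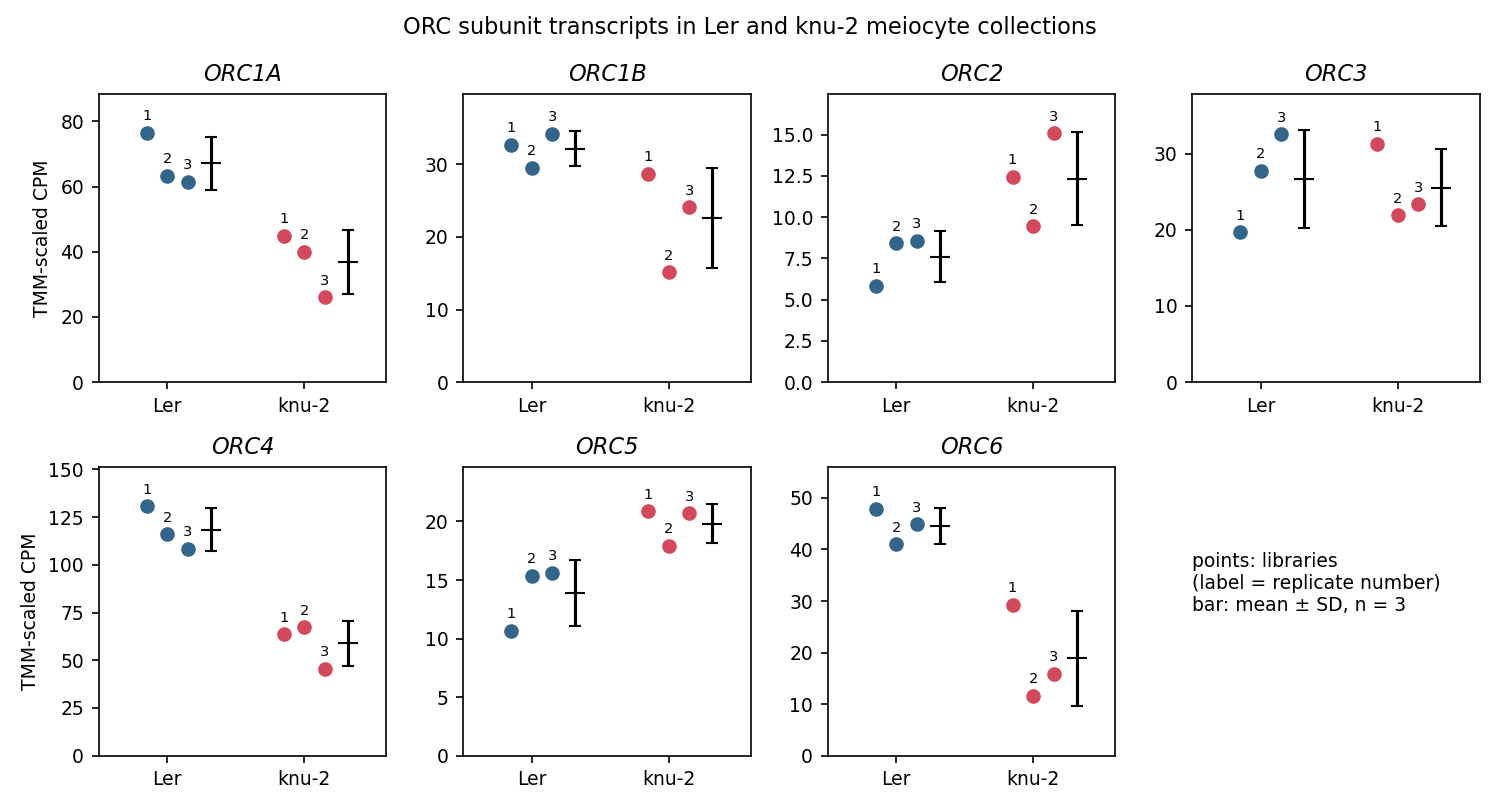
TMM-scaled CPM of each ORC gene in every library (points, labelled with the replicate number), with the mean ± SD of 3 libraries per genotype beside them. Each panel has its own vertical axis from 0. The genotypes lie apart in every panel but that of ORC3, with knu-2 below in ORC1A, ORC1B, ORC4 and ORC6 and above in ORC2 and ORC5. Among all genes tested, knu-2 lay wholly below in 29.3% and wholly above in 29.8%.

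ORC4, one of the ATPase-fold subunits of the ring, was the most abundant member. It stood at 131, 116 and 108 CPM in Ler replicates 1 to 3 and at 63.8, 67.3 and 45.5 CPM in knu-2 replicates 1 to 3. The genotypes did not overlap, and knu-2 replicate 3 was the lowest library. The log2 fold change was -1.01 (SE 0.19, edgeR adjusted p = 0.000979). ORC4 shares 80 exonic bases at its 3′ end with AT2G01130, a helicase gene on the opposite strand that was also lower in knu-2 (-0.73, SE 0.18, adjusted p = 0.00621). The labels do not say if reads were counted by strand, and without strand the reads of these bases cannot be told apart.

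ORC6 encodes the smallest subunit, which stands outside the ATPase family, and it had the largest fall of the 7. It was at 47.9, 41.0 and 44.9 CPM in Ler replicates 1 to 3. In knu-2 it was at 29.3, 11.6 and 15.9 CPM, with replicate 1 nearest to Ler and replicate 2 the lowest. The groups did not overlap, and the log2 fold change was -1.24 (SE 0.30, adjusted p = 0.00612). The raw counts were 812 to 1090 in Ler and 254 to 574 in knu-2. The SD among knu-2 libraries was 9.22 CPM and that among Ler libraries 3.48 CPM.

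ORC1, the largest subunit and the main ATPase of the complex, is the one subunit with a pair of genes. ORC1A was at 76.6, 63.3 and 61.4 CPM in Ler and at 44.98, 39.97 and 26.0 CPM in knu-2, with no overlap, and fell by 0.86 on the log2 scale (SE 0.22, adjusted p = 0.00655). ORC1B was at 32.7, 29.5 and 34.2 CPM in Ler and at 28.7, 15.2 and 24.1 CPM in knu-2. All knu-2 values of ORC1B lay below all Ler values, but by a small margin for replicate 1, and the gene was not called (-0.50, SE 0.24, adjusted p = 0.107, 95% interval -1.03 to 0.025). Its interval reaches from 0.489 times the Ler level to 1.02 times. ORC1A with no scaling beyond library totals was at -0.53 and lost its call (adjusted p = 0.0672, within 0.000637 to 0.0672 over all alternatives), while ORC1B was called without knu-2 replicate 1 (-0.73, adjusted p = 0.0356, within 0.0356 to 0.476).

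ORC1A overlaps genes on the other strand. It shares 94 exonic bases with ATARD2, which was called higher in knu-2 (0.77, SE 0.20, adjusted p = 0.00899), and the non-coding gene AT4G06210 lies within it over 825 bases and was not among the genes counted. Reads of these bases cannot be assigned without strand.

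The share of ORC1A within ORC1 compares the paralogs inside each library and does not depend on scaling. Counted per kilobase, ORC1A made up 72.0%, 70.2% and 66.3% of ORC1 transcripts in Ler replicates 1 to 3 and 63.2%, 74.3% and 54.2% in knu-2 replicates 1 to 3. The knu-2 libraries lay both above and below Ler. The means were 69.5 ± 2.89% and 63.9 ± 10.05% (SD, n = 3 each), and the exact two-sided permutation p was 0.5, where 3 against 3 cannot go below 0.1. ORC1A was the more abundant copy in all 6 libraries. The difference of means, -5.58 percentage points, rested on single libraries, and was -10.8 without knu-2 replicate 2 and -0.74 without knu-2 replicate 3. A called fold change in ORC1A and none in ORC1B is therefore no measured difference between the paralogs.

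ORC2 and ORC5, 2 further subunits of the ring, were the least abundant members in Ler. ORC2 was at 5.85, 8.42 and 8.56 CPM in Ler and at 12.4, 9.46 and 15.1 CPM in knu-2, from 133 to 372 counts per library. The groups lay apart by a small margin between Ler replicate 3 and knu-2 replicate 2. The log2 fold change was 0.70 (SE 0.31, adjusted p = 0.0815, 95% interval 0.026 to 1.37). ORC5 was at 10.7, 15.4 and 15.6 CPM in Ler and at 20.9, 17.9 and 20.7 CPM in knu-2, again apart, with a log2 fold change of 0.51 (SE 0.24, adjusted p = 0.0975, 95% interval -0.0092 to 1.03). In both genes Ler replicate 1 was the lowest library.

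Whether ORC2 and ORC5 passed depended on the setting. Both were called higher with no scaling beyond library totals (ORC2 1.00, adjusted p = 0.0192; ORC5 0.82, adjusted p = 0.0169) and when the test was limited to genes averaging at least 5 CPM (ORC2 0.79, adjusted p = 0.0445; ORC5 0.61, adjusted p = 0.042). Under these 2 settings 6149 of 18422 and 4585 of 14270 genes tested were called higher, in place of 4355 of 18422. ORC2 was also called without knu-2 replicate 2 (0.86, adjusted p = 0.0396). Over all alternatives the adjusted p of ORC2 was between 0.0192 and 0.25 and that of ORC5 between 0.0169 and 0.317.

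ORC3, which pairs with ORC2 in the complex, was at 19.7, 27.7 and 32.5 CPM in Ler and at 31.3, 21.9 and 23.4 CPM in knu-2. It was the one member whose genotypes overlapped, with a log2 fold change of -0.062 (SE 0.24, adjusted p = 0.855). The 95% interval, 0.666 to 1.38 times the Ler level, leaves room for a change in either direction. Across the family the 3 knu-2 values lay below all Ler values in 4 members and above them in 2, beside 29.3% and 29.8% of all genes tested.

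Levels of different genes can be set beside each other only per length, as CPM per kilobase of the deposited gene length. In Ler the order was ORC4 (70.1 ± 6.73), ORC6 (37.0 ± 2.89), ORC1A (25.9 ± 3.18), ORC1B (11.3 ± 0.841), ORC3 (10.3 ± 2.502), ORC5 (5.30 ± 1.06) and ORC2 (4.91 ± 0.985 CPM per kilobase, SD, n = 3). The top 3 were clear of each other and of the rest, whereas ORC1B overlapped with ORC3 and ORC5 with ORC2. In knu-2 the order was ORC4 (34.8 ± 6.91), ORC6 (15.7 ± 7.66), ORC1A (14.3 ± 3.79), ORC3 (9.84 ± 1.95), ORC1B (7.98 ± 2.43), ORC2 (7.95 ± 1.82) and ORC5 (7.55 ± 0.631 CPM per kilobase). Among all genes tested, the level of ORC4 per length stood at percentile 87.9 in Ler and 81.4 in knu-2, and that of ORC2 at 36.1 and 43.2. In knu-2 ORC4 alone stood clear, and each of the other members overlapped with its neighbour in the order. The deposited lengths equal the merged exons of the TAIR10.1 annotation in 6 of the 7 members. That of ORC1A, 2588 bases, is its gene span, and its annotated exon has 2530. For ORC5 this length is 1.31 times that of its shortest annotated transcript, the highest such ratio of the 7, so its level per length could be understated by up to that factor.

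**Figure D2:**
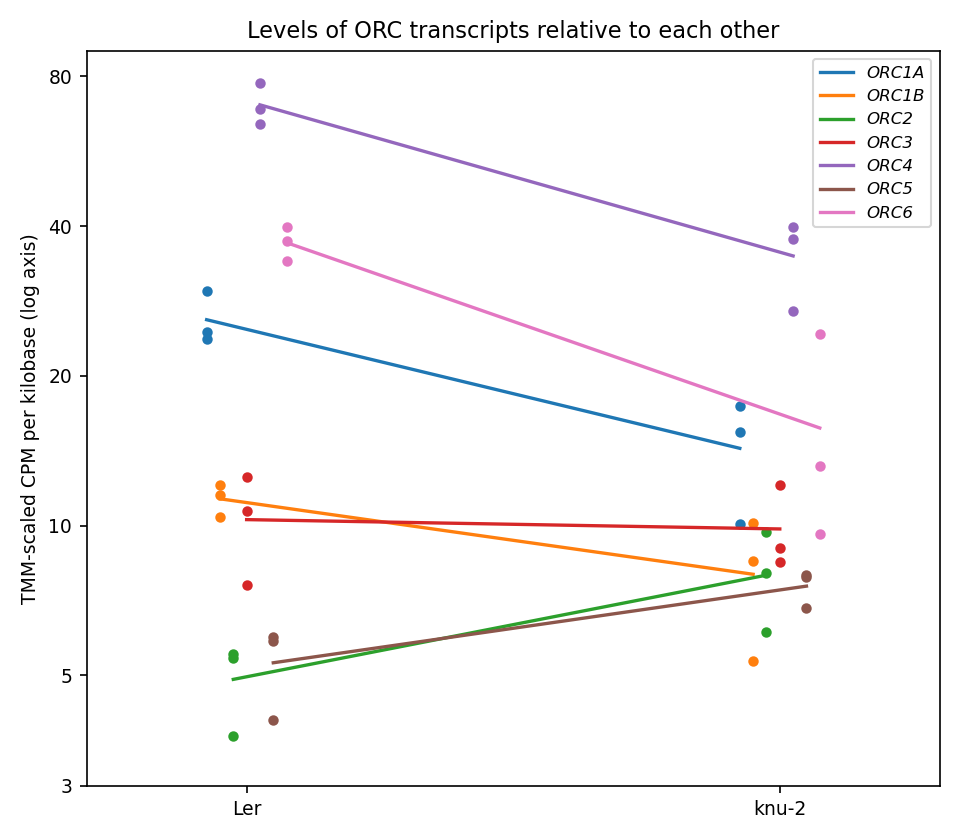
TMM-scaled CPM per kilobase of the 7 ORC genes (log axis) in Ler and knu-2. Points are the 3 libraries of each genotype and lines join the genotype means. The lines of ORC4, ORC6 and ORC1A descend, those of ORC2 and ORC5 ascend, and the members lie closer together in knu-2.

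The members thus lay nearer to each other in knu-2. The highest member was 14.9 ± 4.87 times the lowest within a Ler library and 5.20 ± 2.06 times the lowest within a knu-2 library (SD, n = 3 each). The ranges did not overlap, at 11.6 to 20.5 and 3.42 to 7.45 times, and the exact two-sided permutation p was 0.1, the smallest that 3 against 3 allows. This ratio is made from the same values as the fold changes above and is no independent result. The 3 members that fell were the 3 most abundant in Ler. Of the summed ORC transcripts per length, ORC6 made up 22.5 ± 0.979% in Ler and 15.5 ± 5.08% in knu-2, and ORC2 3.00 ± 0.717% and 8.29 ± 2.70%. ORC4 held the greatest share in each genotype, 42.5 ± 2.44% and 35.7 ± 6.71%, with overlapping ranges. The shares of ORC2, ORC3 and ORC5 were higher in all knu-2 libraries than in all Ler libraries and that of ORC6 was lower (exact permutation p = 0.1 each, 0.175 when adjusted over the 7 shares). A share also depends on the other members of the sum, of which ORC4, ORC6 and ORC1A fell. The CPM of ORC3 itself overlapped between genotypes (log2 fold change -0.062, edgeR adjusted p = 0.855).

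Summed over the family, ORC transcripts stood at 174, 160 and 161 CPM per kilobase in Ler replicates 1 to 3 and at 118, 91.6 and 85.3 CPM per kilobase in knu-2 replicates 1 to 3. The groups lay apart, with a ratio of means of 1.68 (Ler over knu-2, exact two-sided permutation p = 0.1, the smallest possible). ORC4 weighs most in this sum. On the log2 scale the difference was -0.76, and -0.44 with no scaling beyond library totals.

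**Figure D3:**
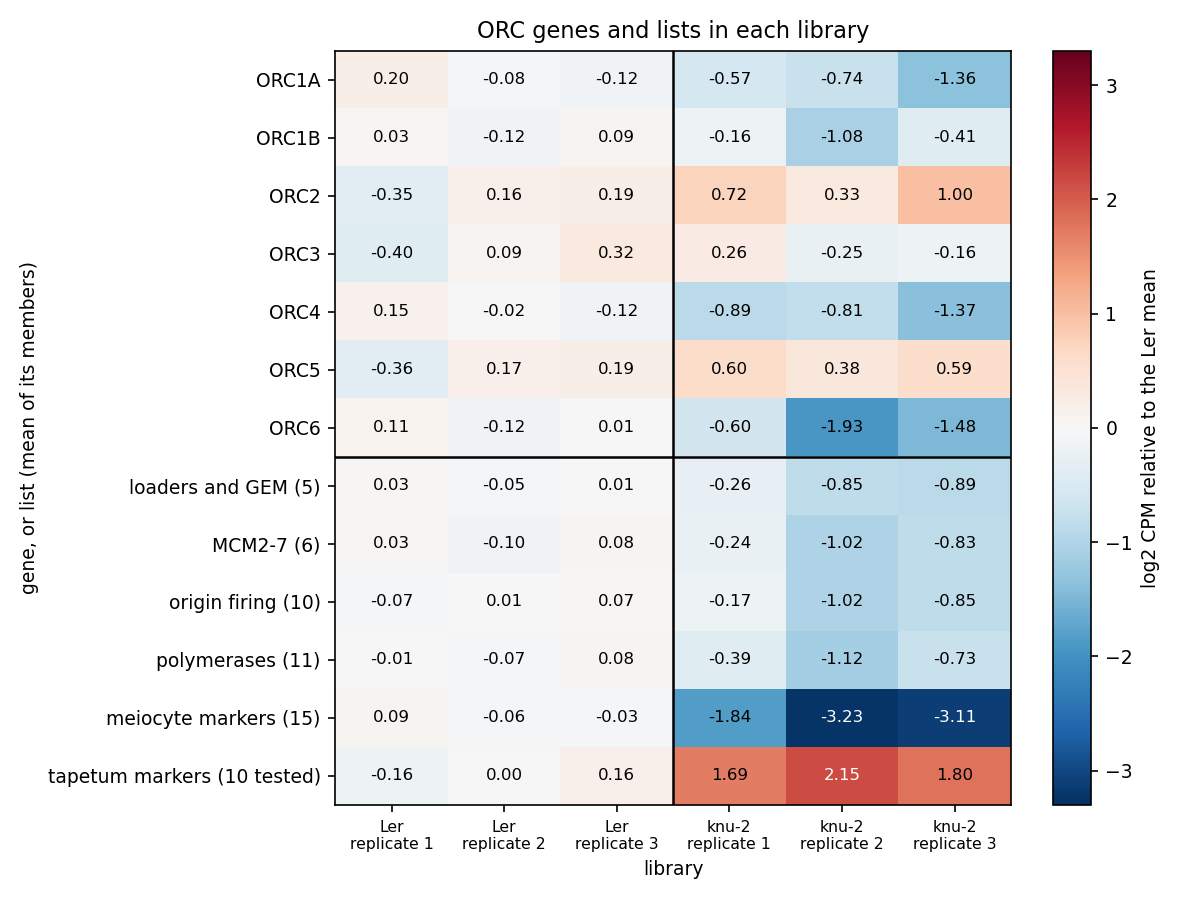
Log2 CPM relative to the Ler mean for each ORC gene (upper rows) and as the mean over the members of each list (lower rows; number of genes in brackets) in each library. ORC6 reaches -1.93 in knu-2 replicate 2, while ORC2 and ORC5 are above 0 in all knu-2 libraries. Replicate 1 is the knu-2 library nearest to 0 in all 6 lists shown.

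The knu-2 libraries differed among themselves, and not in the same order for each member. On the log2 scale, with the Ler mean at 0, the 7 members averaged -0.09, -0.58 and -0.46 in knu-2 replicates 1 to 3. ORC1A and ORC4 were lowest in replicate 3, at -1.36 and -1.37, whereas ORC1B and ORC6 were lowest in replicate 2, at -1.08 and -1.93. In the same libraries the meiocyte markers averaged -1.84, -3.23 and -3.11 and the tapetum markers 1.69, 2.15 and 1.80. Replicate 1 had the smallest loss of meiocyte markers and the ORC mean nearest to Ler, but its single members were not all near Ler. ORC1A (-0.57), ORC1B (-0.16), ORC4 (-0.89) and ORC6 (-0.60) lay below 0 in it. ORC2 (0.72), ORC3 (0.26) and ORC5 (0.60) lay above 0, and the mean offsets these against each other. A link between ORC values and marker loss was not tested. With each library left out in turn the log2 fold changes ranged from -1.72 to -0.99 for ORC6, from -1.12 to -0.86 for ORC4 and from -1.05 to -0.67 for ORC1A, and all 3 genes were called lower each time.

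The genes that act with ORC in licensing were lower in part. Of 5 genes on the loading list, which counts GEM with the loaders, 3 fell, 1 rose and 1 was not called. Of all genes tested 24.4% were lower and 23.6% higher. CDC6, the ATPase that joins ORC to load the helicase, was at 80.6, 69.3 and 64.0 CPM in Ler and at 32.1, 9.64 and 18.5 CPM in knu-2, with no overlap (log2 fold change -1.83, SE 0.39, adjusted p = 0.0053). AT1G07270, the other gene annotated as Cdc6, fell as well (-1.19, SE 0.29, adjusted p = 0.0058), as did GEM (-0.86, SE 0.18, adjusted p = 0.0025), whose protein is known as a partner of CDT1. CDT1A, the helicase loading factor, rose from 37.6, 35.7 and 43.6 CPM to 82.3, 66.2 and 76.6 CPM (0.95, SE 0.17). Its paralog CDT1B was at -0.10 (SE 0.35, adjusted p = 0.838).

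**Figure D4:**
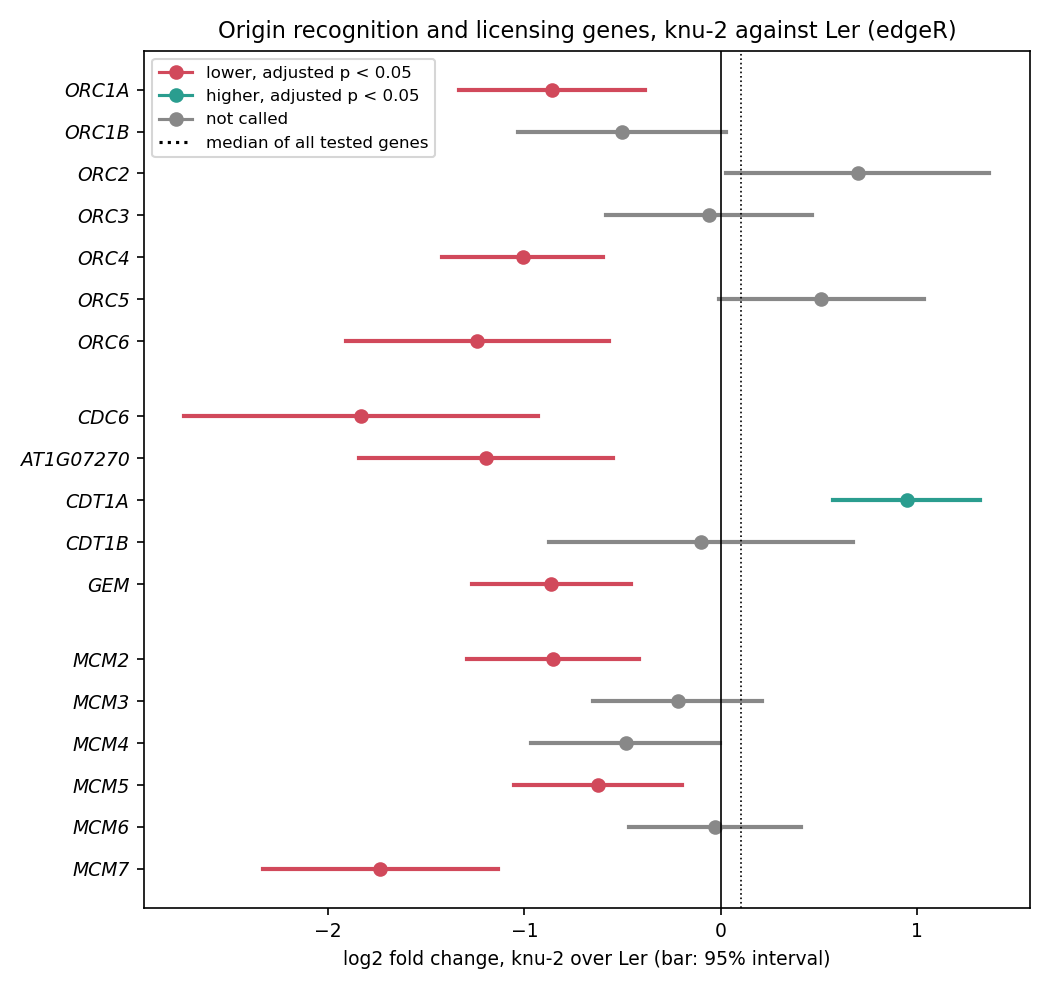
Log2 fold change of knu-2 over Ler with its 95% interval from the edgeR fit, for ORC subunits, loading genes (GEM included) and MCM2-7. The dotted line is the median of all genes tested (0.10). Colours give the call at an adjusted p of 0.05: 3 of 7 ORC genes, 3 of 5 loading genes and 3 of 6 MCM genes were lower, and CDT1A was higher. The shares over all genes tested were 24.4% lower and 23.6% higher.

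Of the 6 genes of the MCM2-7 helicase, which ORC, CDC6 and CDT1 place on DNA, 3 fell and 3 were not called, at a median log2 fold change of -0.56. MCM7 (-1.73, SE 0.27), MCM2 (-0.85, SE 0.20) and MCM5 (-0.63, SE 0.19) were lower, and MCM4 was at -0.49 (SE 0.22, adjusted p = 0.0896). Among 10 genes listed under origin firing, the step that turns the loaded helicase on, the calls were 5 lower and 1 higher. Not every gene listed is an established activator of the helicase. PSF2 (-1.65, SE 0.25), a GINS subunit, and AT4G16970, annotated as a protein kinase (-1.96, SE 0.24), were lower. So was MEI1 (-0.79, SE 0.20), which is annotated as meiosis defective 1. TTN10 (AT1G19080), also a GINS subunit, was higher (1.99, SE 0.27), from a mean of 5.54 CPM in Ler. AT3G55490, listed as another gene for the same subunit, averaged 20.2 CPM in Ler and was not called (-0.23, SE 0.21, edgeR adjusted p = 0.405). Of 11 replicative polymerase genes, 5 fell and 6 were not called. DPB2 (-1.65, SE 0.21), POLD1 (-1.38, SE 0.23) and TIL1 (-0.68, SE 0.21) were lower, as was TIL2 (-3.24, SE 0.98), which had 3.36 to 5.53 CPM in Ler and 0 to 0.771 CPM in knu-2. Over these 32 genes 16 were called lower and 2 higher, with a median of -0.57. The shares over all genes tested were 24.4% lower and 23.6% higher, and no test of the list was made.

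Among the E2F and retinoblastoma genes, whose products control transcription of replication genes, 4 of 9 fell and 2 rose, where 24.4% and 23.6% of all genes tested did. E2FC (-2.11, SE 0.25), DEL3 (-1.80, SE 0.28), E2FB (-1.55, SE 0.19) and the dimer partner gene DPB (-0.96, SE 0.22) were lower. RBR1, the retinoblastoma gene (0.59, SE 0.15, adjusted p = 0.00743), and DEL2 (1.55, SE 0.31) were higher. Of the 3 ORC genes with a searched E2F spelling in the promoter, ORC1A fell and ORC3 overlapped between genotypes. ORC2 was higher in each knu-2 library without a call. Of the 4 with GGCCCA, ORC4 and ORC6 fell and ORC1B and ORC5 were not called. A match of letters is a description of the reference sequence and not a bound site.

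Profiles over the 6 libraries were compared as Pearson correlations of log2 CPM (prior count of 2), as a description only, since the genotypes stand apart and share this contrast across genes. Among the members ORC4 and ORC1A were the most alike (r = 0.977), followed by ORC2 and ORC5 (0.953) and ORC1B and ORC6 (0.928). ORC2 ran opposite to ORC4 (-0.926) and ORC1A (-0.905). Among 14198 other genes that averaged at least 5 CPM, those most like ORC1A were CLC-B (0.997) and TERT (0.997), and those most like ORC4 were EXO70F1 and LARP6a (0.999 each). Most like ORC6 were AT3G17030 and AT4G02040 (0.999 each), most like ORC1B AT5G37380 and TAF12 (0.996 each), and most like ORC2 AT1G13930 and ABCB11 (0.996 each). Most like ORC5 were AT5G46560 (0.997) and AT1G19140 (0.996). ORC3 had the fewest close matches, with 14 genes above 0.95 against 1061 for ORC6. Those nearest to ORC3 were AT4G19130 and POLA2 (0.979 each).

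**Figure D5:**
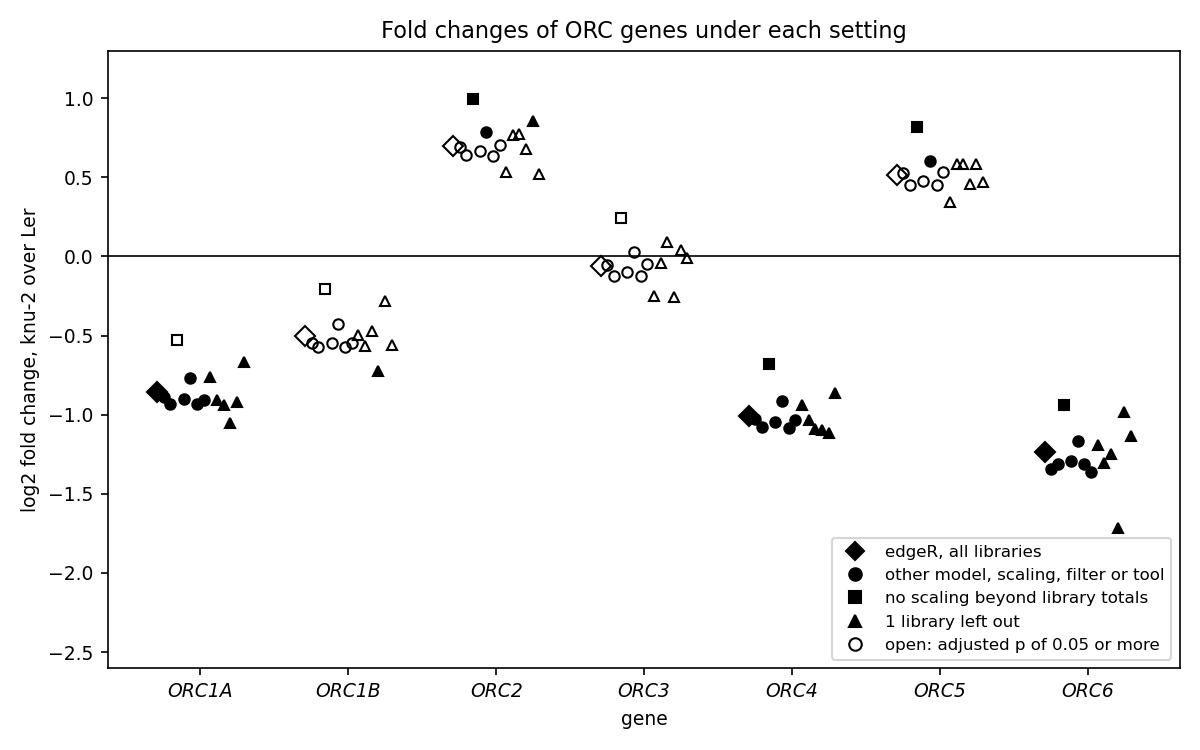
Log2 fold change of knu-2 over Ler for each ORC gene in the edgeR fit of all libraries (diamonds), with another model, scaling, filter or tool (circles), with no scaling beyond library totals (squares) and with 1 library left out (triangles). Filled symbols have an adjusted p under 0.05: those of ORC4 and ORC6 are filled throughout, those of ORC1A in all but the unscaled fit.

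The falls of ORC4 and ORC6 were called in all 13 alternatives, with log2 fold changes of -1.12 to -0.68 for ORC4 and -1.72 to -0.94 for ORC6, and that of ORC1A was called in 12, with values of -1.05 to -0.53. Without TMM the median log2 fold change of the genes tested moved by 0.32, and calls in the direction of knu-2 made up 63.7% of all calls in place of 49.2%.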

How the data were processed

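Per the labels, polyadenylated RNA was made into cDNA with random hexamers, and no step that keeps strand is named. The authors deposited 1 file per library with a raw count and a length in base pairs (another value) for each of 27655 genes. The labels name no aligner, counting tool or build. Of 27445 genes found in TAIR10.1, 99.4% had exactly the merged exon length of that annotation, so its positions and sequences (RefSeq) were used.

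Genes were kept with filterByExpr of edgeR 4.0.16 (R 4.3.3), which left 18422, scaled by TMM and fitted with genotype as the only term (glmQLFit robust, glmQLFTest). Adjusted p-values are Benjamini-Hochberg over these genes, and the SE of a log2 fold change is taken from its test statistic. The fits were tested on simulated data. The labels call the libraries biological replicates without saying whether plants differed, so each p-value speaks only for the spread among these 6 collections. No pair of libraries within a genotype was a copy (chi-square per degree of freedom of at least 20.3). The alternatives comprised other scalings (DESeq2 size factors, library totals alone), other filters, a replicate block, DESeq2 1.42.0, limma-voom (limma 3.58.1) and leaving out each library.

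Members and lists were chosen with earlier results of these data known. All 7 members were named. Of the other replication lists, up to 3 called genes with the largest change, the 2 most abundant and all loading genes were named. AT3G55490 was added beside TTN10. For each member the 2 genes with the highest correlation were named.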

Additional observations from a re-analysis of the deposited data

How the results depend on the processing

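The number of ORC genes called lower, 3 in the edgeR fit, stayed between 2 and 4 over 13 alternatives. The number called higher was 0 and became 2 with no scaling beyond library totals and with a filter at an average of 5 CPM, and between 0 and 1 with 1 library left out. The whole table shifted too: 6149 of 18422 genes tested were higher with no scaling and 4585 of 14270 with that filter, in place of 4355 of 18422. Those lower were 3499 of 18422 and 4128 of 14270, in place of 4501 of 18422. With no scaling, ORC1A lost its call (-0.53, adjusted p = 0.0672), ORC2 (1.00) and ORC5 (0.82) gained one, ORC3 changed sign (0.24), the summed ORC level stood at -0.44 on the log2 scale and of the 32 other replication genes 4 in place of 2 were higher and 12 in place of 16 lower. With 1 library left out, 13 to 20 of these were lower. The 5 CPM filter gave calls to ORC2 (0.79) and ORC5 (0.61) and turned the sign of ORC3 (0.028), which was not called under any setting. With 1 library left out, ORC1B ranged from -0.73 to -0.28, ORC2 from 0.52 to 0.86 and ORC3 from -0.25 to 0.089. ORC3 was positive without Ler replicate 3 (0.089) and without knu-2 replicate 2 (0.038). The causes were not tested.

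Samples with the same replicate number showed no sign of deviating together (correlations of -0.12, 0.10 and 0.052). Those with different numbers ranged from -0.21 to 0.13. With 3 libraries per genotype this cannot exclude a pairing. With the replicate block 3 ORC genes were called lower and 0 higher, as without it, and 18 in place of 16 replication genes lower. The lowest counts in a library were 133 for ORC2, 243 for ORC5 and 254 for ORC6.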
